A study of Mus musculus with 8 samples.

Results

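Chemokines and their receptors were examined in libraries labelled as stromal vascular fraction. Per the paper, this was sorted from tumors of the MC38 line implanted under the skin of mice labelled Bmal1+/+ or Bmal1-/-. The members are all genes of the count table whose symbol is that of a CC, CXC, CX3C or XC chemokine or of a receptor of these classes, which gave 56 of 55487 genes, 38 ligands and 18 receptors. MC38 is a mouse colon carcinoma line, here labelled with GFP, and the stromal vascular fraction is what remained after GFP-positive tumor cells were sorted away. Each group had 4 libraries. Per the paper, hosts labelled Bmal1-/- carry a conventional loss of Bmal1, the partner of CLOCK in the circadian activator. The paper states that the implanted tumor cells do not. Age and sex of the hosts are not given in the labels. Whether each library came from 1 animal is not stated either, so p-values measure the spread between these samples.

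Chemokines are small secreted proteins that guide leukocytes along concentration gradients and are grouped by the spacing of their first cysteines. Their receptors are G protein-coupled and signal mainly through inhibitory G proteins to the actin cytoskeleton. Inflammatory chemokines are induced by cytokines and microbial products, whereas homeostatic chemokines are made without such a stimulus and place leukocytes in lymphoid organs, bone marrow and mucosa. In tumors and in liver, macrophages, endothelial cells, fibroblasts and hepatocytes can all be sources of ligands.

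Facts of the libraries that bear on every value are given first. Total counts were between 14783346 and 18449143 in Bmal1+/+ libraries and between 14054825 and 15624815 in the Bmal1-/- libraries. Bmal1 (Arntl), the targeted gene, had 45, 15, 15 and 27 counts in Bmal1+/+ replicates 1 to 4 and 524, 469, 492 and 444 counts in Bmal1-/- replicates 1 to 4. Its level thus went against the label, so these samples are named by their label below. The Y chromosome gene Ddx3y was at 0 in the Bmal1+/+ libraries and between 58.1 and 61.2 CPM (counts scaled to library size by TMM) in the others, while Xist lay between 844 and 1095 CPM and at or below 0.749 CPM in the same order, so sex and genotype label cannot be told apart. A list of 8 hepatocyte genes summed to between 93280 and 102500 CPM in Bmal1+/+ libraries. In those labelled Bmal1-/- the sum was between 51370 and 63900 CPM. At most 231.6 CPM fell on 8 fibroblast and stellate cell genes, so the defining markers of stroma were low beside those of liver. The tissue, too, is therefore given by its label only. Replicate 4 of the libraries labelled Bmal1-/- stood apart from the other 3, with 81640 CPM on 14 acute-phase genes against 16760 to 21130 CPM, and with 42.8 CPM on 8 neutrophil genes against 0.969 to 1.62 CPM. Members whose value moved most without this library are given with and without it.

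The sequences of 5 promoters are shown as examples. They belong to Cxcl9 and Cxcl10, interferon-induced ligands that were lower, Cxcl1 and Cxcl14, which were high in replicate 4 alone, and Cx3cr1, with the largest difference. Each is the 250 bases before the gene start in RefSeq's GRCm38.p6 annotation, 5′ to 3′ on the strand of the gene. Of the 48 windows of members, 38 had their start in the opening of an annotated transcript. The Cx3cr1 window lies inside the annotated span of the gene, 119901616 to 120069879, and so does not precede the start of that span. Capitals mark matches on either strand to 6 motifs, the E-box CACGTG, the D-box TTATGTAA, the ROR element TAGGTCA, the kappa-B pattern (GGGA and CC with 4 bases of any kind between), the interferon element (GAAA and GAAA with 2 bases of any kind between) and the gamma-activated site TTCNNNGAA.
Cxcl9 promoter, chr5:92328080-92328329, minus strand: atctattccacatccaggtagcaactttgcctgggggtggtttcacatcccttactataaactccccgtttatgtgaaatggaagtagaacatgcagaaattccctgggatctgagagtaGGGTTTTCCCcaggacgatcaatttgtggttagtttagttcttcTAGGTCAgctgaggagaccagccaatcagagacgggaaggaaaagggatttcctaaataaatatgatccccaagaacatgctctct
Cxcl10 promoter, chr5:92348890-92349139, minus strand: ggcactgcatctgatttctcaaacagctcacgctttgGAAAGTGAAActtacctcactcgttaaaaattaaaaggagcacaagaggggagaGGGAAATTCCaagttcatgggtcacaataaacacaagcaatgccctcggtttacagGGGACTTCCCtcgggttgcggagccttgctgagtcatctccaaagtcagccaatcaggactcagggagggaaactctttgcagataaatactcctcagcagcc
Cxcl1 promoter, chr5:90890995-90891244, plus strand: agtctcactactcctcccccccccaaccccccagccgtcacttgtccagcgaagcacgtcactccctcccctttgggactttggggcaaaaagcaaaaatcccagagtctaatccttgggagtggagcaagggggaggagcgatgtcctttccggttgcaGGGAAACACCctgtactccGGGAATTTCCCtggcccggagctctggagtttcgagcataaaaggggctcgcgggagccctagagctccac
Cxcl14 promoter, chr13:56296552-56296801, minus strand: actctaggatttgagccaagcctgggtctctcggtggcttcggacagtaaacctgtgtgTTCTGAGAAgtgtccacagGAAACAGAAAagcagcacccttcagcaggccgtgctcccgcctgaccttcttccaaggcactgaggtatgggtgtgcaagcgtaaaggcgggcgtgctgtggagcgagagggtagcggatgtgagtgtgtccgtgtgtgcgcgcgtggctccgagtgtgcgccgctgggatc
Cx3cr1 promoter, chr9:120068297-120068546, minus strand: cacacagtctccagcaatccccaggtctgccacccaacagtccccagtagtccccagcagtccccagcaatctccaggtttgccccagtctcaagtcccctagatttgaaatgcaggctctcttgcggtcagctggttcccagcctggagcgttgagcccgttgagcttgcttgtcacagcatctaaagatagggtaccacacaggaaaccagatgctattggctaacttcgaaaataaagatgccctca

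The Cxcl1 window held 3 kappa-B matches, which began 90, 71 and 70 bases before the start, the last 2 overlapping on opposite strands. The Cxcl10 window held 2 kappa-B matches, at 159 and 103 bases, and 1 interferon element at 213 bases. Cxcl9 had 1 kappa-B match at 130 bases and a ROR element at 86 bases. Cxcl14 had an interferon element at 172 bases and a gamma-activated site at 191 bases, and the Cx3cr1 window had no match to these 6 patterns. Among called members that are not shown, the windows of Ccl9, Cxcl12, Ccl25 and Cxcr4 had no match either. The window of Cxcl13 had a kappa-B match and a ROR element. Of all 32851 promoter windows of this length, 17.6% held the kappa-B pattern, 2.98% the interferon element, 7.02% the gamma-activated site, 2.23% the ROR element, 0.819% the D-box and 6.02% the E-box. Windows were found for 15 of the 20 members with enough counts for a test. In these 15, the kappa-B pattern occurred in 6, and the E-box, through which BMAL1 and CLOCK bind, in 0. A member with several windows, such as Ccl27a, was counted if any of them held the match. The percentages above are shares of single windows, so the counts and percentages are unlike measures. A match is a run of letters and not a binding site shown by experiment.

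Of the 56 members, 20 passed the filter on low counts and 36 did not. Among the 20, 9 had lower and 2 had higher transcript levels in the libraries labelled Bmal1-/-. The threshold was an adjusted p of 0.05 (edgeR, quasi-likelihood). Over all 14353 genes tested, 16.2% were lower and 14.9% were higher by this rule, 31.1% in all. The study's own criterion asked for a change of more than 1 on the log2 scale with p under 0.05 before adjustment. By it, 9 members were lower and 2 higher, where 8.71% and 5.41% of all genes were, 14.1% in all. The criterion took in Cxcr6 and Cxcl14, which missed the adjusted threshold, and left out Cxcl16 and Ccl25, which had smaller fold changes. The median log2 fold change of the 20 was -0.66, and that of all genes tested was 0.02. The normalised CPM of the groups did not overlap for 8 of the lower and 2 of the higher members, against 16.8% and 16.7% of all genes, 33.4% in all. A gene can pass the filter through the group in which it is high, as Cx3cr1 did, so these counts describe the 20 genes and not the family. Without replicate 4, 12 members were lower and 2 higher, where 16.9% and 15% of 14775 genes were.

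**Figure D1:**
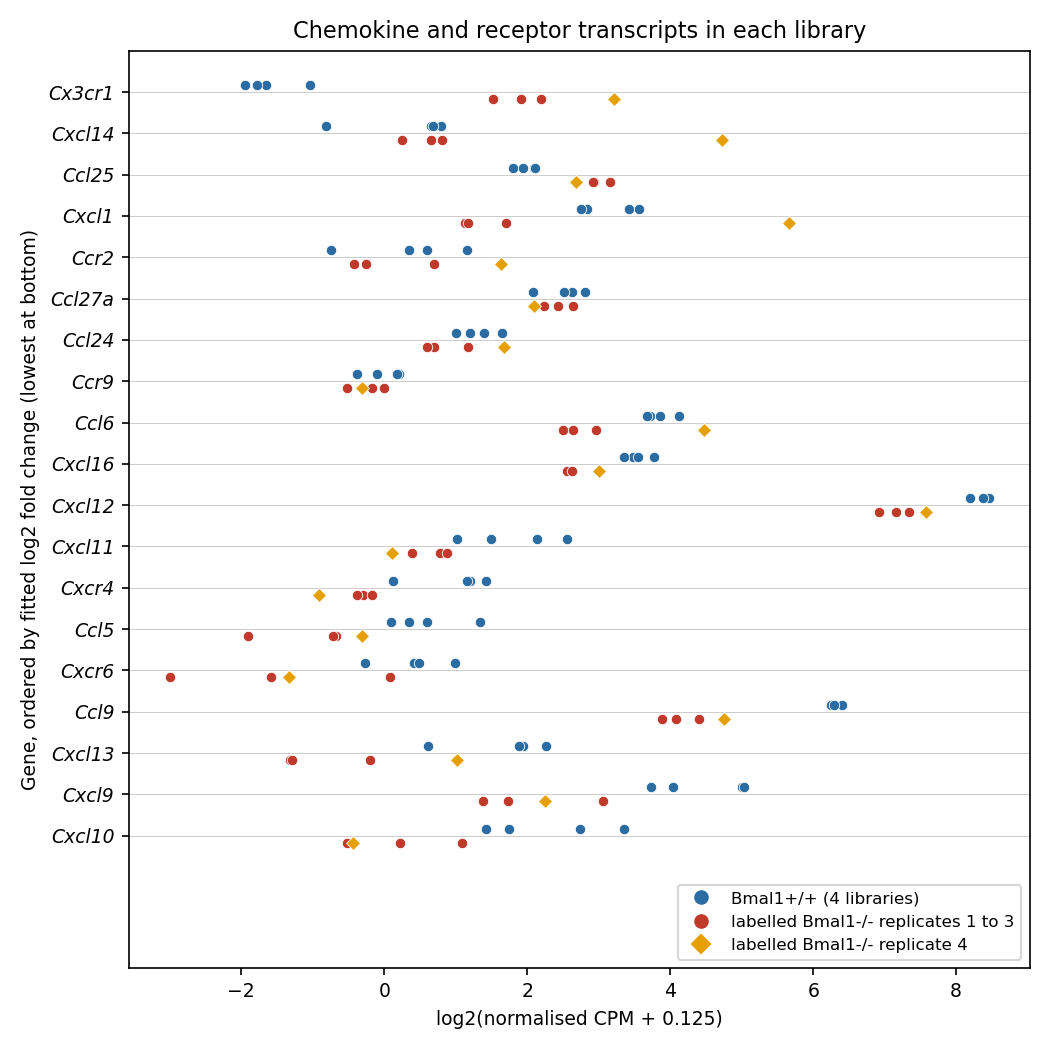
Normalised CPM, with a small offset given on the axis, on a log2 scale in each of the 8 libraries, for 19 of the 20 members tested, with genes ordered by fitted log2 fold change. The interferon-induced ligands and Ccl9 lie to the left of the Bmal1+/+ points in all 4 libraries labelled Bmal1-/-, and replicate 4 (diamonds) lies far to the right for Cxcl1, at 50.4 CPM, and Cxcl14, at 26.4 CPM.

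Levels were compared between members only per transcript length, as the deposited FPKM. In the Bmal1+/+ libraries Cxcl12 and Ccl9 were the most abundant members, at 25.2 ± 2.48 FPKM and 24.1 ± 0.857 FPKM (SD, n = 4), and these did not differ beyond their spread. Cxcl9 followed at 7.14 ± 3.10 FPKM and Ccl6 at 5.57 ± 0.725 FPKM, with overlapping ranges. The receptors were much lower than these ligands, from 0.712 ± 0.251 FPKM for Cxcr4 down to 0.0379 ± 0.00814 FPKM for Ccr9 and 0.0274 ± 0.0133 FPKM for Cx3cr1. Other ligands lay in the range of the receptors, with means of 0.428 FPKM for Ccl25, 0.609 FPKM for Cxcl14 and 0.702 FPKM for Cxcl11. The summed FPKM of all members was between 74.9 and 89.7 in Bmal1+/+ libraries and between 29.6 and 33.3 in replicates 1 to 3 of the libraries labelled Bmal1-/-, with 74.1 in replicate 4. Cxcl12 and Ccl9 made up between 29.0% and 33.9% and between 26.6% and 33.9% of that sum in Bmal1+/+ libraries. In the libraries labelled Bmal1-/- these shares were between 19.4% and 41.9% for Cxcl12 and at most 20.1% for Ccl9. The lowest Cxcl12 share was that of replicate 4, in which Cxcl1 reached 17.5 FPKM and Cxcl14 12.8 FPKM, above the 14.4 FPKM of Cxcl12 for the first and close below it for the second.

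**Figure D2:**
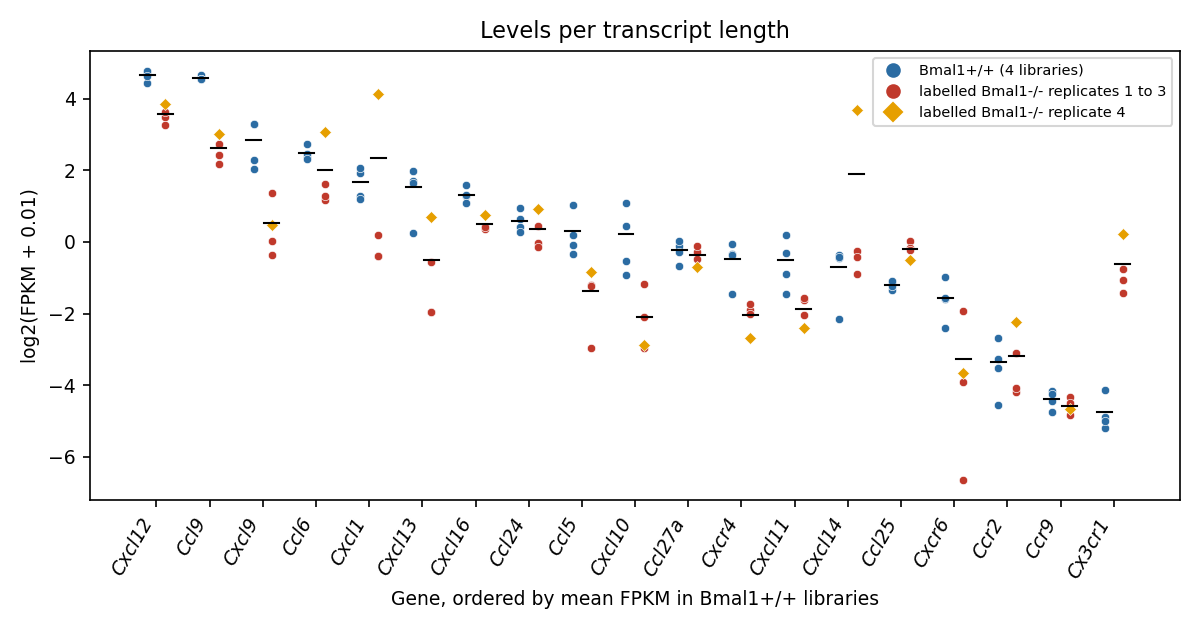
Deposited FPKM plus 0.01 on a log2 scale for 19 of the 20 members tested, ordered by their mean in Bmal1+/+ libraries, with points for libraries and short lines for group means. Cxcl12 and Ccl9 lead at 25.2 and 24.1 FPKM, and the 4 genes at the low end, Cxcr6, Ccr2, Ccr9 and Cx3cr1, are receptors.

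Among the inflammatory CC ligands, Ccl9 and Ccl5 were lower in the libraries labelled Bmal1-/-, Ccl6 followed replicate 4, and 10 of the 14 genes of this class did not pass the filter. Ccl9 (ENSMUSG00000019122), a ligand of CCR1 made by myeloid cells, lies on chromosome 11 of GRCm38 from 83572919 to 83578636. It had 76.3, 84.5, 75.7 and 78.2 CPM in Bmal1+/+ replicates 1 to 4 and 21.0, 16.8, 14.6 and 26.9 CPM in the libraries labelled Bmal1-/-. All 4 of the latter were below every Bmal1+/+ library. Its log2 fold change was -1.99 ± 0.18 (SE, edgeR quasi-likelihood, adjusted p = 4.8e-05), a 3.97-fold difference and the smallest adjusted p among the members.

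Ccl6, another ligand of CCR1, lies beside Ccl9 from 83587882 to 83593087 and had 13.1, 14.4, 12.7 and 17.3 CPM in Bmal1+/+ libraries. In the libraries labelled Bmal1-/- it had 7.68, 5.54, 6.12 and 22.0 CPM. Replicates 1 to 3 were below every Bmal1+/+ library and replicate 4 was above all of them. With all libraries its log2 fold change was -0.48 ± 0.40 (SE, edgeR quasi-likelihood, adjusted p = 0.40), and without replicate 4 it was -1.15 ± 0.17 (SE, edgeR, adjusted p = 0.0012). Ccl9 without replicate 4 had a log2 fold change of -2.17, and stayed below 0 with and without that library.

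Ccl5, which attracts T cells and monocytes, had 2.41, 1.15, 0.941 and 1.39 CPM in Bmal1+/+ libraries and 0.500, 0.485, 0.142 and 0.678 CPM in the libraries labelled Bmal1-/-. The groups did not overlap, although the counts were only between 2 and 10 in the second group. On the log2 scale the change was -1.69 ± 0.44 (SE, edgeR quasi-likelihood, adjusted p = 0.017), and the adjusted p was 0.051 without Bmal1+/+ replicate 1. Ccl24, an eosinophil attractant acting on CCR3, overlapped between the groups, at 2.39 ± 0.484 and 2.02 ± 0.765 CPM (SD, n = 4). Its log2 fold change was -0.25 (edgeR, adjusted p = 0.55). The monocyte attractant Ccl2 had at most 11 counts in a library, and Ccl3 and Ccl4, macrophage inflammatory proteins, at most 3 and 7.

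The interferon-induced ligands Cxcl9, Cxcl10 and Cxcl11, which all act on CXCR3 of activated T cells and NK cells, were lower in the libraries labelled Bmal1-/-, 3 of 3, where 16.2% of all genes were. They lie in a row on chromosome 5, from 92321347 at the 3′ end of Cxcl9 to 92365485 at the 5′ end of Cxcl11. Cxcl9 had 31.8, 16.4, 13.2 and 32.7 CPM in Bmal1+/+ replicates 1 to 4 and 8.24, 3.19, 2.49 and 4.61 CPM in the libraries labelled Bmal1-/-. The groups did not overlap, and Bmal1+/+ replicates 1 and 4 were the highest. The log2 fold change was -2.34 ± 0.41 (SE, edgeR quasi-likelihood, adjusted p = 0.0026).

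Cxcl10 had 10.1, 2.56, 3.23 and 6.57 CPM in Bmal1+/+ libraries and 2.00, 1.04, 0.569 and 0.611 CPM in the libraries labelled Bmal1-/-. The lowest Bmal1+/+ library was close above the highest of the others, and replicates 1 and 4 of Bmal1+/+ were again highest. Fitted over all libraries, the log2 change was -2.39 ± 0.53 (SE, edgeR quasi-likelihood, adjusted p = 0.0076). Cxcl11, annotated as a polymorphic pseudogene, had 5.78, 4.29, 2.69 and 1.89 CPM and 1.19, 1.59, 1.71 and 0.950 CPM in the same order of groups. Here the gap between the groups was narrow and Bmal1+/+ replicate 4 was the lowest of its group, unlike for Cxcl9 and Cxcl10. Its log2 fold change was -1.43 ± 0.37 (SE, edgeR quasi-likelihood, adjusted p = 0.016). Both genes overlap Art3 on the other strand, whose own log2 fold change was -1.06 (edgeR, adjusted p = 0.025). Cxcl11 also overlaps Gm2673, which had 0 counts in Bmal1+/+ libraries and 22, 12, 13 and 10 in the others. Strand use in the counting is not given in the sources used here, so reads of overlapping genes cannot be told apart.

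Of the transcripts upstream, the interferon regulatory factors Irf1 and Irf7 had 16.6 ± 1.27 and 35.3 ± 6.43 CPM in Bmal1+/+ libraries (SD, n = 4) and 8.41 ± 0.878 and 18.6 ± 5.79 CPM in the libraries labelled Bmal1-/-. Neither gene overlapped between the groups. Both were lower, with log2 fold changes of -0.98 and -0.92 (edgeR, adjusted p = 3.5e-04 and 0.0095). They come from a list of 29 upstream cytokine and NF-κB genes, of which 25 were tested, 12 were lower and 1 was higher. Whether they bear on the levels of these ligands was not tested. Ifng, which encodes interferon gamma, had at most 1 count in a library, so a difference in it was not detectable at this depth.

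**Figure D3:**
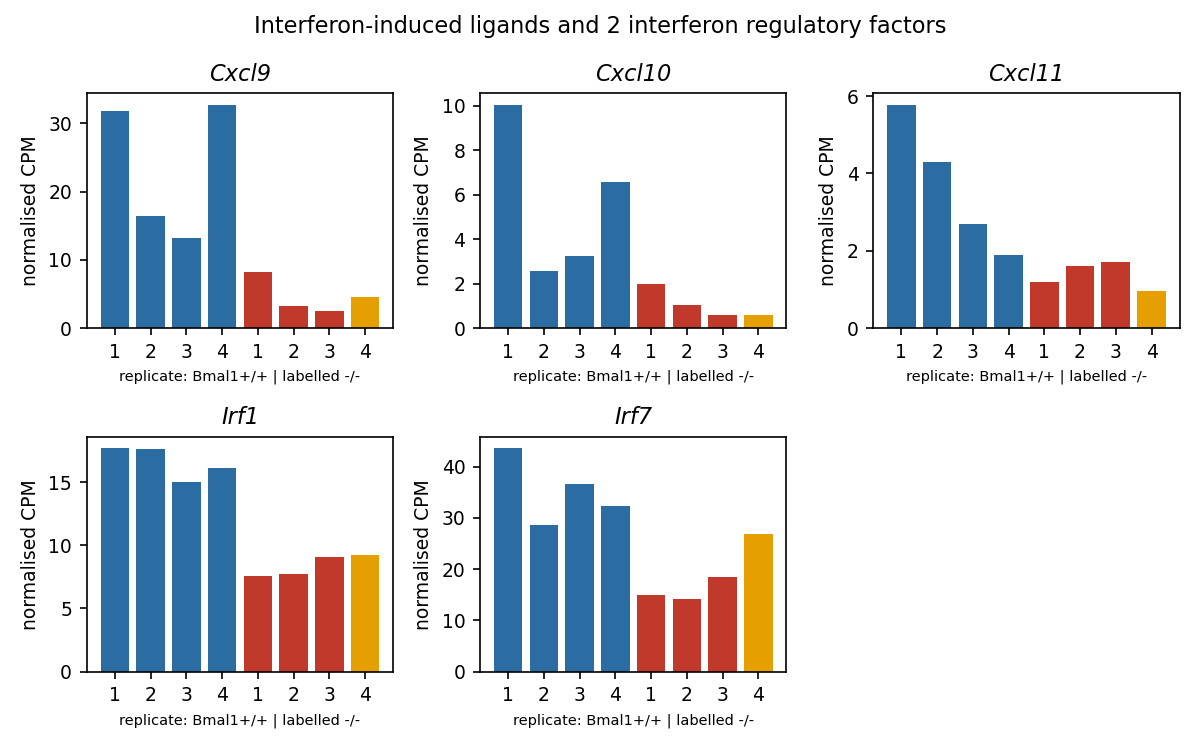
Normalised CPM in each library for the 3 interferon-induced ligands with Irf1 and Irf7, with 1 bar per library and no error bars, Bmal1+/+ in blue, libraries labelled Bmal1-/- replicates 1 to 3 in red and replicate 4 in orange. Cxcl9 reaches 31.8 and 32.7 CPM in Bmal1+/+ replicates 1 and 4 and no more than 8.24 CPM in a library labelled Bmal1-/-.

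Neutrophil-attracting CXC ligands were represented by Cxcl1 alone, since the other 4 genes of the class had at most 7 counts in a library and 2 of them, Cxcl3 and Cxcl15, had 0 in all. Cxcl1, a ligand of CXCR2, had 10.6, 7.04, 11.7 and 6.63 CPM in Bmal1+/+ libraries. In the libraries labelled Bmal1-/- it had 2.06, 3.12, 2.14 and 50.4 CPM. Replicates 1 to 3 were below every Bmal1+/+ library, whereas replicate 4 was 16.2 times the highest of these 3 and 4.31 times the highest Bmal1+/+ library. The log2 fold change over all 8 libraries was 0.68 ± 0.94 (SE, edgeR quasi-likelihood, adjusted p = 0.62). Without replicate 4 it was -1.88 ± 0.27 (SE, edgeR, adjusted p = 0.0011). With all 8 libraries it was -0.75 in limma-voom and -0.84 with a replicate block (adjusted p = 0.51 and 0.55), so its sign depended on that library and on the fit. Cxcr2, its receptor on neutrophils, had 8, 7, 10 and 2 counts in Bmal1+/+ libraries and 3, 0, 4 and 16 in the libraries labelled Bmal1-/-, below the filter.

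The homeostatic and other CXC ligands comprised Cxcl12, Cxcl13, Cxcl14, Cxcl16 and Cxcl17. Cxcl12, Cxcl13 and Cxcl16 were lower in the libraries labelled Bmal1-/-, Cxcl14 was raised in 1 library, and Cxcl17 had at most 1 count in a library. Cxcl12 (ENSMUSG00000061353), which retains CXCR4-bearing cells in bone marrow and is made by stromal and endothelial cells, lies on chromosome 6 from 117168535 to 117181367. It had 345, 291, 351 and 333 CPM in Bmal1+/+ libraries and 121.5, 142, 162 and 190.3 CPM in the libraries labelled Bmal1-/-. Every library of the second group was well below the first. The log2 fold change was -1.10 ± 0.15 (SE, edgeR quasi-likelihood, adjusted p = 5.9e-04), a 2.14-fold difference.

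Cxcl16, a membrane-anchored ligand of CXCR6, had 11.02, 10.1, 13.6 and 11.6 CPM in Bmal1+/+ libraries and 5.93, 5.75, 6.05 and 7.87 CPM in the libraries labelled Bmal1-/-. The groups did not overlap. Its log2 fold change of -0.85 ± 0.15 (SE, edgeR quasi-likelihood, adjusted p = 0.0028) was under the limit of the study's criterion. Cxcl16 overlaps Zmynd15 on the other strand, whose log2 fold change was -0.78 (adjusted p = 0.027). Cxcl13, which guides B cells through CXCR5, had 3.73, 1.41, 3.56 and 4.68 CPM and 0.749, 0.277, 0.285 and 1.90 CPM in the same order of groups. Replicate 4 of the second group lay above Bmal1+/+ replicate 2, so the groups overlapped. On the log2 scale the change was -2.04 ± 0.57 (SE, edgeR quasi-likelihood, adjusted p = 0.022). It was no longer called when any of 5 libraries was left out (adjusted p between 0.051 and 0.060), namely Bmal1+/+ replicates 1 and 4 and replicates 1, 2 and 3 of the other label, and was -2.89 (adjusted p = 0.003) without replicate 4 of that label.

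Cxcl14, an epithelial and stromal chemokine, had 1.44, 1.60, 1.48 and 0.445 CPM in Bmal1+/+ libraries and 1.62, 1.45, 1.07 and 26.4 CPM in the libraries labelled Bmal1-/-. Replicate 4 of the second group was 16.3 times the highest of its label, Bmal1+/+ replicate 4 was the lowest library, and the other 6 lay together. A fitted log2 fold change of 2.62 ± 1.05 (SE, edgeR quasi-likelihood, adjusted p = 0.085) passed the study's criterion with an unadjusted p of 0.032. In limma-voom and with a replicate block it was 1.38 and 1.22 (adjusted p = 0.35 and 0.44). Without replicate 4 it was 0.17 ± 0.41 (SE, edgeR, adjusted p = 0.78).

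Homeostatic and lymphoid CC ligands gave the other higher member. Ccl25 (ENSMUSG00000023235), which draws CCR9-bearing lymphocytes to thymus and small intestine, lies on chromosome 8 from 4325210 to 4360020. It had 3.37, 4.16, 3.70 and 4.18 CPM in Bmal1+/+ libraries and 8.81, 7.55, 7.47 and 6.31 CPM in the libraries labelled Bmal1-/-. All libraries of the second group were above the first. Its log2 difference was 0.97 ± 0.16 (SE, edgeR quasi-likelihood, adjusted p = 0.0017), and 1.05 without replicate 4. Ccl25 overlaps Elavl1 on the other strand, which had a log2 fold change of 0.10 (edgeR, adjusted p = 0.59). Ccl27a, an attractant of CCR10-bearing skin T cells, had 5.63 ± 1.15 and 5.02 ± 0.864 CPM (SD, n = 4), with a log2 fold change of -0.17 (edgeR, adjusted p = 0.56). Ccl27b, a near copy of Ccl27a, had at most 6 counts, and reads can be split between such copies and between Ccl21a and Ccl21b. The CCR7 ligand Ccl19 had at most 11 counts and Ccl21a at most 3.

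Of the 18 receptors, 6 passed the filter, of which Cxcr4 was lower and Cx3cr1 was higher. Each is 16.7% of the 6, close to the 16.2% of all genes that were lower and the 14.9% that were higher. Cxcr4, the receptor of CXCL12, had 0.963, 2.18, 2.55 and 2.12 CPM in Bmal1+/+ libraries and 0.687, 0.762, 0.641 and 0.407 CPM in the libraries labelled Bmal1-/-. The groups did not overlap, with Bmal1+/+ replicate 1 closest to the others. Fitted over all libraries, the log2 change was -1.63 ± 0.35 (SE, edgeR quasi-likelihood, adjusted p = 0.0069). Receptor and ligand of this pair were thus both lower. Ackr3, an atypical receptor that scavenges CXCL12, had between 10 and 13 counts and between 1 and 13 counts in the same order of groups, with an edgeR adjusted p of 0.45.

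Cx3cr1 (ENSMUSG00000052336), the fractalkine receptor of monocytes, tissue macrophages and some lymphocytes, lies on chromosome 9 from 119901616 to 120069879. It had 6, 3, 2 and 3 counts in Bmal1+/+ replicates 1 to 4 and 44, 64, 51 and 135 counts in the libraries labelled Bmal1-/-. In CPM these were 0.361, 0.192, 0.134 and 0.167, around the detection floor, and 2.75, 4.43, 3.63 and 9.16. Every library of the second group was above all of the first, and replicate 4 was the highest. The fitted log2 fold change was 4.49 ± 0.50 (SE, edgeR quasi-likelihood, adjusted p = 1.9e-04), and 4.02 ± 0.36 (SE, edgeR, adjusted p = 6.9e-05) without replicate 4. Because the Bmal1+/+ counts are so few, the size of this fold depends on the settings and lay between 3.90 and 4.85 over the alternatives. The annotated span of Cx3cr1 overlaps 3 genes on its own strand, Csrnp1, Gorasp1 and Xirp1. Gorasp1 was higher, with a log2 fold change of 0.57 (edgeR, adjusted p = 0.0023), and Csrnp1 and Xirp1 had log2 fold changes of 0.72 and 1.27 (adjusted p = 0.059 and 0.13). On the other strand it overlaps 6 genes, of which Wdr48 had enough counts for a test, with a log2 fold change of 0.13 (edgeR, adjusted p = 0.45), and the others had at most 7 counts in a library. The part of reads from overlapping genes in the Cx3cr1 counts was not tested. Cx3cl1, the ligand of this receptor, went the other way in counts, with 15, 21, 11 and 2 in Bmal1+/+ libraries and 3, 4, 0 and 0 in the libraries labelled Bmal1-/-, but did not pass the filter.

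Cxcr6, the receptor of CXCL16 on resident T and NKT cells, had 1.87, 0.704, 1.21 and 1.28 CPM in Bmal1+/+ libraries and 0.937, 0.208, 0 and 0.271 CPM in the libraries labelled Bmal1-/-. The groups overlapped through replicate 1 of the second. A log2 fold change of -1.77 ± 0.66 (SE) passed the study's criterion with an unadjusted p of 0.023, and its adjusted p in edgeR was 0.066. Without replicate 1 of the libraries labelled Bmal1-/- it was -2.91 (edgeR, adjusted p = 0.012), and over the alternatives the adjusted p lay between 0.012 and 0.16. Cxcr6 overlaps Fyco1 on the other strand, which had a log2 fold change of 0.12.

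The CC receptors Ccr2 and Ccr9 had no called difference. Ccr2, the receptor of CCL2 on inflammatory monocytes, had 1.28 ± 0.675 and 1.46 ± 1.09 CPM (SD, n = 4), with a log2 fold change of 0.18 (edgeR, adjusted p = 0.83). Replicate 4 of the second group had 2.99 CPM and the other 3 between 0.623 and 1.499 CPM. Without it the mean was 0.945 CPM and the log2 fold change -0.43 (edgeR, adjusted p = 0.55). Ccr9, the receptor of CCL25, had 0.868 ± 0.181 and 0.721 ± 0.129 CPM, with a log2 fold change of -0.27 (adjusted p = 0.51), and so had no called difference where its ligand was higher.

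**Figure D4:**
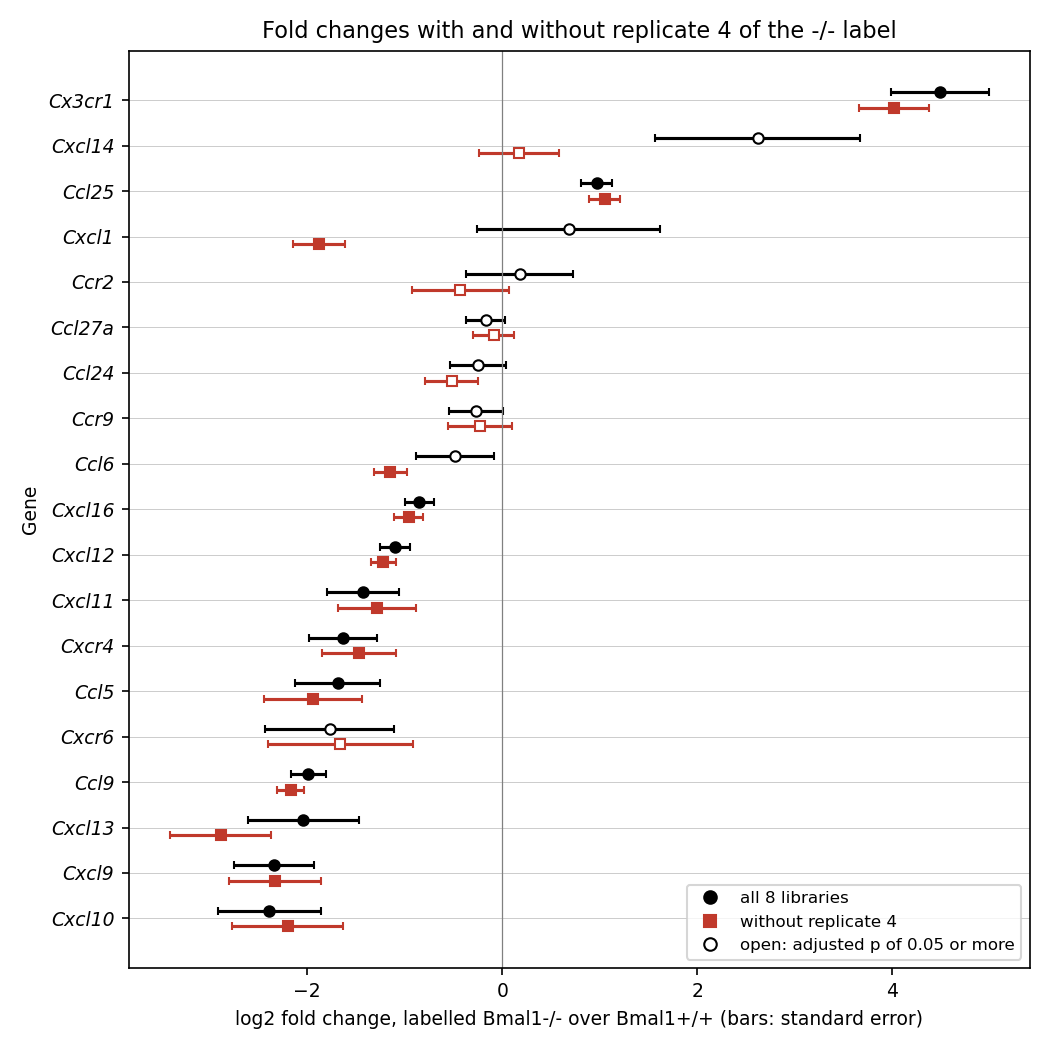
Log2 fold changes of the libraries labelled Bmal1-/- over Bmal1+/+ libraries for 19 of the 20 members tested, with standard errors as bars, from all 8 libraries (circles) and without replicate 4 (squares), filled where the adjusted p was below 0.05. Cxcl1 moves from 0.68 to -1.88 and Cxcl14 from 2.62 to 0.17, while Cx3cr1, Ccl25 and the 9 lower members keep their side of 0.

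Replicate 4 was the highest library of its label for 12 of the 20 members, where it was the highest for 28.4% of all genes tested. It exceeded the next library more than 2-fold for 6 members, Cxcl14, Cxcl1, Ccl6, Cxcl13 and Cx3cr1 among them. Over all 14353 genes tested, it did so for 315. For Cxcl9, Cxcl10, Cxcr6 and Ccr9 it lay within the range of the other 3, and its Cxcl11, Cxcr4, Ccl25 and Ccl27a were the lowest of its label, at 0.950, 0.407, 6.31 and 4.14 CPM. The acute-phase transcript Saa1 had 114263 counts in this library and at most 283 in the other 3, and the neutrophil transcripts S100a8 and S100a9 had 224 counts each against at most 15 and 10. The part of these in the chemokine values was not tested.

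The other 36 members did not pass the filter, and no call was made for them. A count of 0 allowed up to 0.163 to 0.213 CPM, depending on the library, for counting error only. Of the 36, 6 had 0 counts in all 8 libraries, namely Ccl1, Ccl8, Ccl20, Ccl21b, Cxcl3 and Cxcl15. The highest count of any of the 36 was 21, for Cx3cl1. Cxcr3, the receptor of the interferon-induced ligands, had 9, 8, 10 and 12 counts in Bmal1+/+ libraries and 7, 1, 3 and 5 counts in the libraries labelled Bmal1-/-. Ccr1, the receptor of CCL9 and CCL6, had 2, 2, 1 and 3 and then 3, 0, 2 and 12 counts, the last in replicate 4. Cxcr5, the receptor of CXCL13, had at most 8 counts, Ccr10 at most 14, Xcr1 of cross-presenting dendritic cells at most 16 and Ccr7 at most 11. Ccr3 had 12 counts in Bmal1+/+ replicate 4 and at most 1 in any other library. In the fit without a filter 4 of the 36 passed the study's criterion, all lower, namely Cx3cl1, Cxcl2, Ccr10 and Cxcr3. Their log2 fold changes were -2.62, -2.38, -1.75 and -1.13, with edgeR adjusted p between 0.059 and 0.17, so none was called. The share of all 28004 genes of that fit that passed the criterion was not counted. The remaining members, Ccl7, Ccl11, Ccl12, Ccl17, Ccl22, Ccl26, Ccl28, Cxcl2, Cxcl5, Xcl1, Ccr4, Ccr6, Ccr8 and Cxcr1, had at most 10 counts in a library.

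Genes that act with the members were counted in lists. Of 8 atypical receptors and platelet chemokines, 5 were tested and 2 were lower, Ccrl2, which binds chemerin, with a log2 fold change of -2.04 (edgeR, adjusted p = 1.2e-04), and Ackr4, a scavenger of CCL19, CCL21 and CCL25, with -1.09 (adjusted p = 0.030). Of 36 genes of chemokine receptor signaling, 34 were tested, 8 were lower and 1 was higher. The share lower, 23.5%, and the share higher, 2.94%, stand beside 16.2% and 14.9% of all genes. The lower genes included Prex1 and Dock2, Rac activators of leukocytes, and Rgs1, which shortens receptor signaling, with log2 fold changes of -1.31, -1.09 and -1.87 (adjusted p = 0.0032, 0.034 and 0.0034). The higher gene was Grk5, a receptor kinase, at 4.04 ± 0.460 and 58.8 ± 10.8 CPM (SD, n = 4), with a log2 fold change of 3.86 (edgeR, adjusted p = 8.2e-07). Of 29 upstream cytokine and NF-κB genes, 25 were tested, 12 were lower and 1 was higher. Il1b fell by 1.96 on the log2 scale (adjusted p = 0.0031) and Il1r1, the receptor through which it acts, had a log2 fold change of 2.14 (edgeR, adjusted p = 0.0033). Tnf had at most 6 counts in a library. Of 14 acute-phase genes 3 were higher, the fibrinogen chains Fga, Fgb and Fgg.

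Markers of macrophages, endothelial cells and fibroblasts were counted as cells that make or sense chemokines, and can be read against the 16.2% of all genes that were lower and the 14.9% that were higher. Of 13 macrophage and Kupffer cell markers, 11 were lower and 0 higher (edgeR). Their sum was between 777 and 977 CPM in Bmal1+/+ libraries, between 342 and 387 CPM in replicates 1 to 3 of the libraries labelled Bmal1-/- and 696 CPM in replicate 4. Of 8 endothelial markers, 5 were lower and 0 higher, with sums between 290.6 and 336 CPM and between 200.6 and 274 CPM. Of 8 fibroblast and stellate cell markers, 7 were tested and 4 were lower, with sums between 148 and 232 CPM and between 111 and 119 CPM. Of 12 T and NK cell markers, 5 were tested, with sums between 7.26 and 9.30 CPM and between 2.92 and 6.93 CPM. Of 6 B cell markers 4 were tested, with sums between 9.20 and 13.8 CPM and between 5.06 and 6.43 CPM in replicates 1 to 3 of the second group, with 11.7 CPM in replicate 4. Of 8 neutrophil markers 2 were tested, and of 8 dendritic cell markers 5. In these 4 lists 1 gene was called, the dendritic cell marker Itgax, which was lower, and by the study's criterion 3 genes were lower. Of the 8 hepatocyte genes, Alb was lower and Apoa1, Serpina1c and Fgb were higher. Of 6 epithelial and tumor cell markers, 2 were tested and both, Epcam and Krt19, were lower, and Cdx2 was at 0. In bulk RNA fewer cells of a type and less RNA per cell cannot be told apart, and the part of these cell types in the values of the members was not tested.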

How the data were processed

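RNA, per the paper from GFP-negative cells of MC38 tumors, was sequenced in 8 libraries, 4 labelled Bmal1+/+ and 4 labelled Bmal1-/-. Per the labels and the paper's methods, the authors aligned reads to GRCm38 with HISAT2 and deposited raw counts per gene and FPKM (fragments per kilobase, scaled to library size). The submitters' processing notes also list CASAVA 1.8 and TopHat2 2.0.6. Gene symbols and positions came from GENCODE M21, an older annotation than the authors', which matched 99.4% of 55487 identifiers, and promoters from RefSeq.

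Counts were filtered with filterByExpr, scaled by TMM and tested with edgeR 4.0.16 (quasi-likelihood test, R 4.3.3), with Benjamini-Hochberg adjustment over all 14353 genes tested and a threshold of 0.05. Log2 fold changes used edgeR's default prior count, and CPM are TMM-scaled. The study's criterion, an absolute log2 fold change above 1 with p below 0.05, was counted beside it. The deposited FPKM served for levels only, with no test. Members that passed the filter were named, except that 1 member and 1 gene of the lists are counted in the totals but not reported here. Overlap with other genes was taken from the annotation, and 17 of 56 members overlap another gene.

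Library totals are given in the report. A count of 0 allows up to 3 counts, for counting error only. No pair of libraries of the same label agreed within sampling noise, and pairs across labels were not compared. Libraries of the same number did not deviate together (r between -0.06 and 0.06), so the numbers were not used as pairs. The members and gene lists were chosen with earlier results of these data known. Alternatives were DESeq2 1.42.0, limma 3.58.1 with voom, the likelihood ratio test, other scalings, filters and prior counts, a replicate block and leaving out each library. The scripts were tested on simulated data.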

Additional observations from a re-analysis of the deposited data

Results flagged for a closer look

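In 5 of 38 groups of 4 libraries, 1 per gene and label, 1 library lay far from the other 3 by Dixon's ratio, where chance gives about 1 in 20. Of these, 4 were replicate 4 of the libraries labelled Bmal1-/-. Cxcl1 was at 50.4 CPM in it and between 2.06 and 3.12 CPM in the other 3, and Cxcl14 at 26.4 CPM against 1.07 to 1.62 CPM. Ccl6 was at 22.0 CPM against 5.54 to 7.68 CPM, and Cxcl16 at 7.87 CPM against 5.75 to 6.05 CPM. The other was Bmal1+/+ replicate 4, with Cxcl14 at 0.445 CPM against 1.44 to 1.60 CPM. The cause was not tested.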

How the results depend on the processing

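The 9 lower and 2 higher members at an adjusted p below 0.05 became 10 and 2 with DESeq2, limma-voom and the replicate block. Of all 14353 genes, these fits called 2579, 2395 and 2064 lower and 2253, 2156 and 1809 higher. With the likelihood ratio test the members became 10 and 3, where 2476 and 2225 of all genes were called. They became 5 and 1 when at least 10 counts were required in every library, which left 11 members to test. Under that minimum 2007 of 12597 genes were lower and 1827 higher. By the study's criterion the counts were 9 lower and 2 higher. Under DESeq2, limma-voom and the replicate block 1 was higher, and under the count minimum 4 were lower and 0 higher. DESeq2 gave no adjusted p for Cxcl14 or Cxcl1, so neither could be called there. Without a filter, 13 of 50 members tested passed the study's criterion lower, and the share of all genes was not counted for that fit. At the adjusted threshold that fit had 9 members lower and 2 higher, where 2053 and 1857 of 28004 genes were. With each library left out in turn, 7 to 12 members were lower and 2 higher at the adjusted threshold, and 8 to 11 lower and 1 to 2 higher by the criterion. Over all genes of these leave-out fits, 1893 to 2502 were lower and 1706 to 2212 higher at the adjusted threshold, of 14590 to 14775 tested. The log2 fold change of Cxcl1, 0.68, lay between -1.88 and 1.05 with 1 library left out, negative only without Bmal1-/- replicate 4, and was -0.75 in limma-voom and -0.84 with the replicate block. That of Ccr2, 0.18, lay between -0.43 and 0.52 with 1 library left out, and was -0.43 without Bmal1-/- replicate 4 and -0.09 without Bmal1+/+ replicate 3. The cause was not tested. Cxcr6, gained by these fits, had an adjusted p of 0.03 with DESeq2, 0.036 with limma-voom, 0.019 with the likelihood ratio test and 0.048 with the replicate block. The likelihood ratio test also gained Cxcl14 (adjusted p = 0.026). The block changed no other call. Upper-quartile factors, library totals and a prior count of 2 changed no call. Receptors near the detection floor, Cxcr6 and Cx3cr1 among them, are limited by depth.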
